A study of Rattus norvegicus with 10 samples.

Results

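The genes described here are a list of 38 antioxidant, glutathione and metallothionein genes, measured in rat pancreatic islets after 10 days on a standard or a cafeteria diet. A gene was taken as measured where the platform annotation gave at least 1 probeset carrying its symbol alone, and the probeset with the highest mean signal over all arrays stood for the gene. That held for 36 of the 38 genes, out of 14217 genes measured this way in the whole series. Prdx1, a cytosolic peroxiredoxin, and Fth1, the ferritin heavy chain, had only probesets annotated to several symbols and have no value here. A further 3 genes, Mt1, Hmox1 and Gstm2, were too dim to enter the test, which left 33 members among 10300 tested genes.

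Islets were taken from male Wistar rats, 7 weeks old and housed singly, in a study concerned with Sfrp5 in obesity and beta cell proliferation. One group ate chow that supplied 8% of its calories as fat, and the other ate a cafeteria diet that supplied 66%. Each group held 5 biological replicates, each on an array of its own, and the labels do not say whether an array held islets of 1 rat or of several. The sample labels disagree about the diet: in all 10 samples the title, the source name and the description give one diet, and the field named diet gives the other. The titles were followed throughout, so that every sign below would turn if the diet field were the right one.

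Superoxide dismutases turn superoxide into hydrogen peroxide, which glutathione peroxidases and peroxiredoxins then reduce at the cost of glutathione or thioredoxin. Glutathione is made from glutamate, cysteine and glycine, and oxidised glutathione and thioredoxin are restored by reductases that use NADPH. Many of these genes are targets of the transcription factor NRF2 (gene Nfe2l2), which KEAP1 holds in check until oxidants modify it, whereas metallothioneins bind zinc and copper and are induced by zinc through the factor MTF1. Beta cells are known for low levels of several peroxide-removing enzymes compared with liver.

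None of the 33 tested genes differed between the diets after adjustment over all probesets. Small differences lay mostly on one side: 27 of the 33 were higher in the cafeteria group and 6 were lower, with a median log2 difference (cafeteria minus standard) of 0.11 and a range from -0.16 for Txnrd2 to 0.61 for Mt2A. Over all 10300 tested genes 48.7% were higher, and the median was -0.0044. A gene was called where the Benjamini-Hochberg adjusted p from limma was under 0.05. This was met by 0% of the 18625 probesets tested. The lowest adjusted p among the members, each on its brightest probeset, was 0.477. A dimmer Keap1 probeset with a lower p is described below and is not in the counts that follow. At an unadjusted p under 0.05 there was 1 higher member, Mt2A, against 5.02% of all tested genes, and there were 0 lower members against 5.26%. In no member were the arrays of one diet all above those of the other. Among all tested genes that held for 1.06% in the direction of cafeteria higher and for 1.72% in the direction of cafeteria lower.

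The size of the differences was close to that of other genes. The median absolute log2 difference was 0.117 over the members and 0.105 over all tested genes. It exceeded 0.5 in 1 member (3.03%), against 1.92% of all tested genes. The 95% confidence interval included 0 for 32 of the 33 members. For 26 members it lay wholly between -0.5 and 0.5, so that a difference beyond that size was outside their intervals. The count of higher members also moved with the scaling. When every array was centred on its median, 24 of 33 members were higher, and the median of all genes shifted to -0.042 with 39.7% of genes higher. With quantile normalization, 28 of 33 members were higher, and 47.2% of all genes.

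**Figure D1:**
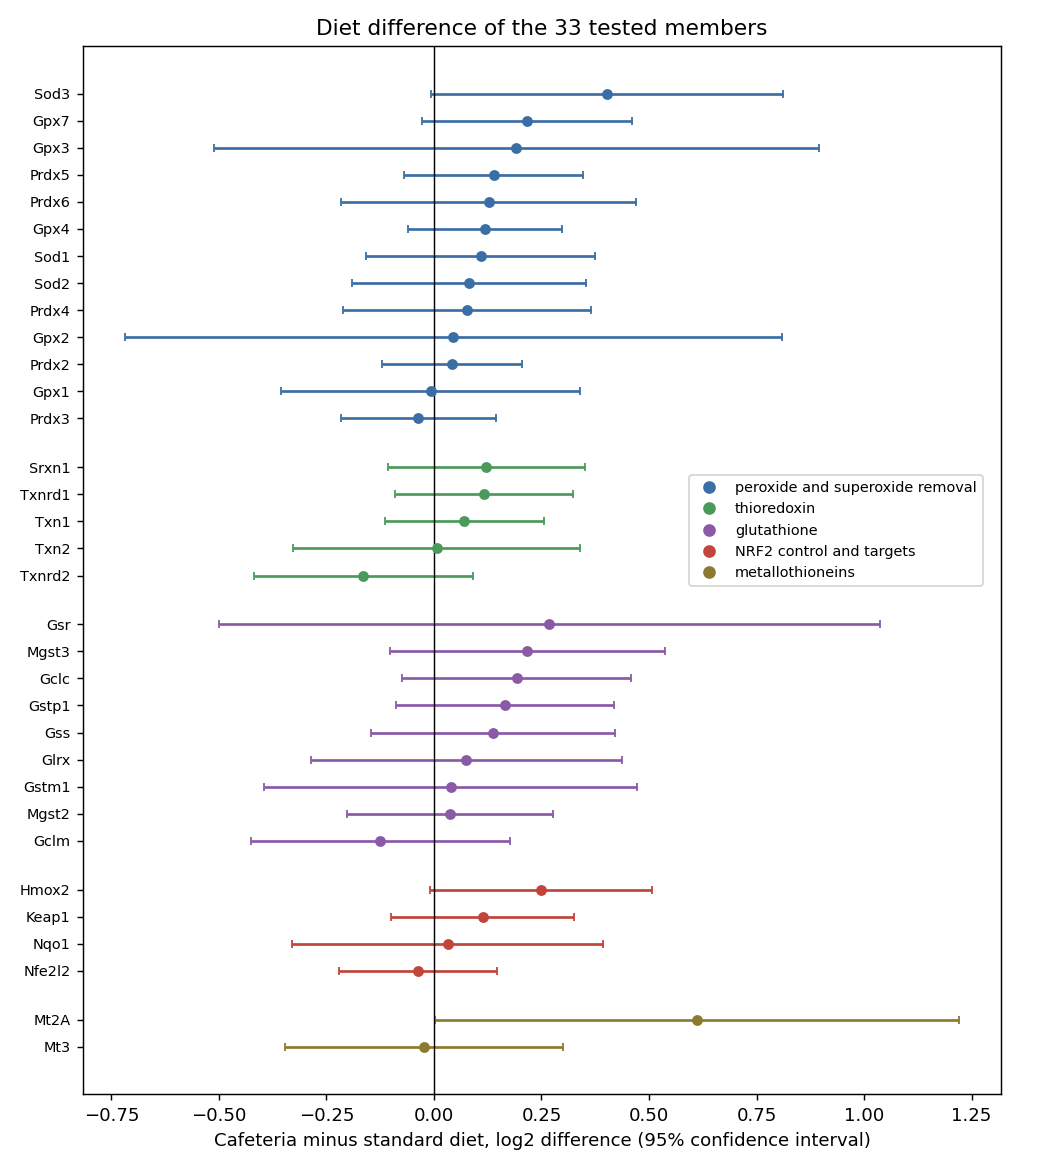
Diet difference of each tested gene as cafeteria minus standard on the log2 scale (horizontal axis), with its 95% confidence interval, grouped and coloured by role. Most points sit slightly to the right of 0, and only the interval of Mt2A (0.003 to 1.22) excludes 0.

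Genes of superoxide and peroxide removal formed the largest group, with 13 tested members, of which 11 were higher in the cafeteria group and 2 lower. Their median log2 difference was 0.11 and their lowest adjusted p was 0.480. Sod3, the secreted superoxide dismutase of the extracellular space, had the largest difference of the group. Its signals were 144.3, 197.1, 222.4, 120.8 and 212.5 on the standard diet arrays 1 to 5, and 265.8, 186.9, 235.4, 195.2 and 319.2 on the cafeteria arrays 1 to 5. Standard arrays 1 and 4 were the lowest and cafeteria arrays 1 and 5 the highest, while the remaining arrays overlapped. The means were 179.4 ± 44.5 and 240.5 ± 54.3 (SD, n = 5 each), with a log2 difference of 0.40 (SE 0.186, 95% interval -0.0061 to 0.81) and an adjusted p of 0.480.

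Gpx7, a peroxidase of the endoplasmic reticulum, read 354.5, 367.4, 274.3, 270.5 and 269.0 on the standard arrays and 324.7, 362.2, 350.3, 340.8 and 406.6 on the cafeteria arrays. The standard arrays split into a pair near the cafeteria values and 3 lower arrays. The means were 307.1 ± 49.4 and 356.9 ± 31.0 (SD, n = 5 each), and the log2 difference was 0.22 (SE 0.111, 95% interval -0.027 to 0.46, adjusted p = 0.508).

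Sod1, the cytosolic copper-zinc dismutase, read 11457.7 to 12351.0 on the standard arrays, with a median of 11869.6. On the cafeteria arrays it read 12198.4, 11230.5, 11749.8, 11768.1 and 17856.2, so that array 5 alone stood above the other 9. The log2 difference was 0.11 (SE 0.121, adjusted p = 0.760), and without cafeteria array 5 it was -0.013. Sod2, the mitochondrial manganese dismutase, ran from 1074.6 to 1256.7 on the standard diet and from 978.8 to 1514.4 on the cafeteria diet, with a log2 difference of 0.08 (adjusted p = 0.833). Its cafeteria arrays fell on both sides of the whole standard range. Ccs, the copper chaperone that loads SOD1, is not on the list and is described with the other genes of the pathway.

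Among the glutathione peroxidases, Gpx4, which reduces lipid hydroperoxides in membranes, was measured most tightly. It read 4708.0, 5697.0, 5049.2, 5616.4 and 5480.4 on the standard arrays and 5340.2, 5980.5, 5430.6, 5887.1 and 6168.3 on the cafeteria arrays, and its log2 difference was 0.12 (95% interval -0.061 to 0.30, adjusted p = 0.609). Gpx1, the widespread cytosolic enzyme, read 2679.4, 2233.1, 2391.8, 2683.6 and 2537.0 against 2164.9, 1994.7, 2333.4, 2441.5 and 3856.3. Of its cafeteria arrays, 1 to 4 lay at or below the middle of the standard values and array 5 was the highest of all. The log2 difference was -0.01 (95% interval -0.36 to 0.34, adjusted p = 0.991).

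Gpx3, the form secreted into plasma, and Gpx2, known as the gastrointestinal form, varied far more between arrays of the same diet. Gpx3 read 11615.7, 16206.1, 12142.9, 5707.6 and 14758.7 on the standard arrays and 14814.0, 17530.9, 6404.4, 14964.7 and 15045.1 on the cafeteria arrays. A single array of each diet, standard 4 and cafeteria 3, was far below the rest. Gpx2 read 225.1, 174.5, 144.6, 83.9 and 124.9 against 293.4, 130.9, 243.5, 80.4 and 91.0, with low and high arrays in both diets. Their residual SDs, 0.586 and 0.638 on the log2 scale, were above those of 98.3% and 98.7% of tested genes, and the intervals of their diet differences were accordingly wide (-0.51 to 0.90 and -0.72 to 0.81). Neither tracked a cell type index past the test. The Pearson r of Gpx3 with the stromal index was 0.49 (permutation p = 0.144, adjusted p = 0.311; Spearman rho 0.41, permutation p = 0.247, adjusted p = 0.433), and that of Gpx2 with the duct index was 0.46 (permutation p = 0.178, adjusted p = 0.311; rho 0.42, permutation p = 0.23, adjusted p = 0.433). Without the 2 arrays farthest from the median of the gene, these r were 0.23 and 0.25.

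The peroxiredoxins, thiol enzymes that reduce hydrogen peroxide, were mostly steady. Prdx2, the cytosolic form abundant in red cells, stayed between 5530.6 and 6664.1 on all 10 arrays, with a log2 difference of 0.043 (95% interval -0.12 to 0.21). The mitochondrial Prdx3 differed by -0.036 (95% interval -0.21 to 0.14). Prdx4, of the endoplasmic reticulum, read 1413.0 to 1786.0 on 9 arrays and 2322.7 on cafeteria array 5, and without that array its log2 difference changed from 0.08 to -0.041. Prdx5 likewise read 2143.6 to 2251.0 on cafeteria arrays 1 to 4 and 2809.6 on array 5 (log2 difference 0.14, adjusted p = 0.606). Prdx6, which reduces phospholipid hydroperoxides with glutathione, ran the other way on that array, with its lowest value of all, 654.4 (log2 difference 0.13, adjusted p = 0.782).

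The glutathione group had 9 tested members, 8 higher and 1 lower, with a median log2 difference of 0.14 and a lowest adjusted p of 0.572. Synthesis starts with glutamate-cysteine ligase, and the genes of its subunits differed in sign. Gclc, the catalytic subunit, read 206.7, 242.6, 262.7, 199.4 and 243.0 on the standard arrays and 263.2, 219.3, 307.5, 316.3 and 229.8 on the cafeteria arrays. Cafeteria arrays 3 and 4 exceeded every standard array and array 1 barely did, while arrays 2 and 5 lay inside the standard range. The means were 230.9 ± 26.8 and 267.2 ± 44.0 (SD, n = 5 each), and the log2 difference was 0.19 (SE 0.121, 95% interval -0.074 to 0.46, adjusted p = 0.572). A dimmer Gclc probeset differed by 0.24 (SE 0.144).

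Gclm, the modifier subunit, read 1048.1 to 1500.9 on the standard diet and 932.1 to 1474.3 on the cafeteria diet. It was the only tested member of the group that was lower, by -0.12 on the log2 scale (95% interval -0.43 to 0.18, adjusted p = 0.757). Across the 10 arrays the log2 signals of Gclc and Gclm were not found to be related, with a Pearson r of -0.18 (permutation p = 0.623, adjusted p = 0.666) and a Spearman rho of -0.13 (permutation p = 0.732, adjusted p = 0.854). Gss, glutathione synthetase, ran from 350.6 to 453.4 and from 334.3 to 544.8, with a log2 difference of 0.14 (95% interval -0.15 to 0.42).

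Gsr, the reductase that restores glutathione, was the least repeatable of all members. It read 303.4, 242.9, 119.7, 280.4 and 276.5 on the standard arrays and 235.6, 489.1, 118.4, 336.0 and 392.7 on the cafeteria arrays. Array 3 of each diet lay near 120 while the other 8 lay above 230. Its log2 difference was 0.27 with an interval of -0.50 to 1.04, and its residual SD of 0.642 was above that of 98.7% of tested genes. Glrx, a glutaredoxin that uses glutathione to reduce mixed disulfides, read 3586.1 to 5346.2 on the standard arrays, 3881.0 to 4969.9 on cafeteria arrays 1 to 4 and 6638.3 on cafeteria array 5. Its log2 difference was 0.08, and -0.053 without that array. A dimmer Glrx probeset differed by 0.17 (SE 0.178).

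The glutathione S-transferases join glutathione to reactive compounds. Mgst3, a membrane-bound form, read 345.1, 429.9, 479.4, 608.9 and 539.9 on the standard arrays and 547.8, 570.8, 474.4, 519.8 and 657.6 on the cafeteria arrays. The lower standard arrays 1 and 2 were below every cafeteria array, and the others overlapped. The means were 480.6 ± 101.1 and 554.1 ± 68.1 (SD, n = 5 each), with a log2 difference of 0.22 (SE 0.145, 95% interval -0.10 to 0.54, adjusted p = 0.598). Gstp1, Gstm1 and Mgst2 differed by 0.17, 0.04 and 0.04, each with an interval that included 0. Gstm2 was below the filter, and its signals of 59.2 to 123.3 and 59.5 to 113.1 covered the same range in both diets.

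Of the 5 thioredoxin genes 4 were higher and 1 was lower, with a median log2 difference of 0.07. The reductases of the 2 compartments differed in sign. Txnrd2, the mitochondrial thioredoxin reductase, read 247.4, 251.6, 243.5, 228.7 and 183.5 on the standard arrays and 205.7, 245.0, 178.2, 220.7 and 175.0 on the cafeteria arrays. Standard array 5 was nearly as low as the lowest cafeteria arrays, and the groups overlapped. The means were 231.0 ± 27.9 and 204.9 ± 29.5 (SD, n = 5 each), and the log2 difference of -0.16 was the lowest of all members (SE 0.116, 95% interval -0.42 to 0.090, adjusted p = 0.618).

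Txnrd1, the cytosolic reductase, read 1027.1, 1166.9, 1143.9, 997.3 and 1089.9 against 1184.7, 1317.8, 967.7, 1201.6 and 1237.8. All cafeteria arrays other than array 3 were above all standard arrays, and array 3 was the lowest of the 10. The means were 1085.0 ± 72.9 and 1181.9 ± 130.2 (SD, n = 5 each), with a log2 difference of 0.12 (SE 0.094, 95% interval -0.090 to 0.32, adjusted p = 0.666). A further Txnrd1 probeset differed by 0.18 (SE 0.117). Srxn1, sulfiredoxin, which repairs overoxidised peroxiredoxins, differed by 0.12 (SE 0.105, adjusted p = 0.685), and its second tested probeset by 0.29 (SE 0.197). Txn1, cytosolic thioredoxin, ran from 10163.3 to 11314.5 on 9 arrays and reached 13316.9 on cafeteria array 5, whereas mitochondrial Txn2 was highest on standard array 5 (1698.7) and differed by 0.01.

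The fourth group held NRF2, its partner KEAP1 and products of heme and quinone metabolism, with 4 tested members, of which 3 were higher and 1 lower. Hmox2, the constitutive heme oxygenase, read 887.2, 999.5, 718.4, 955.8 and 1043.0 on the standard arrays and 907.1, 1098.0, 1174.9, 1230.7 and 1057.7 on the cafeteria arrays. Cafeteria arrays 2 to 5 were above every standard array, and cafeteria array 1 lay within the standard range. The means were 920.8 ± 126.9 and 1093.7 ± 124.0 (SD, n = 5 each), with a log2 difference of 0.25 (SE 0.118, 95% interval -0.010 to 0.51, adjusted p = 0.482). The ratio of GAPDH control signals at the 3′ and 5′ ends of the transcript is a measure of RNA quality. It was lower in the cafeteria group, though not past adjustment (exact permutation p = 0.0238, adjusted p = 0.310). With the log2 of this ratio as a covariate the Hmox2 difference was 0.06. The unadjusted limma p of Hmox2 was 0.058 in the main fit. It was under 0.05 with a filter at the 70th percentile, quantile normalization, a trended and robust variance or array weights. The same held with the acinar index as a covariate, and without standard array 5 or cafeteria array 1. With a pseudocount of 1, no filter and median centring it was 0.059, 0.076 and 0.169, and the highest over the other settings was 0.724.

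Keap1, the adaptor that marks NRF2 for degradation, read 958.9, 1070.4, 910.4, 1184.8 and 1204.9 on the standard arrays and 1074.3, 1120.9, 1101.9, 1186.9 and 1261.6 on the cafeteria arrays. The lower 3 standard arrays were below every cafeteria array. The means were 1065.9 ± 131.4 and 1149.1 ± 75.3 (SD, n = 5 each), with a log2 difference of 0.11 (SE 0.097, 95% interval -0.099 to 0.33, adjusted p = 0.683). A dimmer Keap1 probeset went from 252.4 ± 40.8 to 342.4 ± 64.7 (SD, n = 5 each), a log2 difference of 0.41 (SE 0.142, adjusted p = 0.412). Nfe2l2 itself ran from 994.9 to 1199.8 and from 969.9 to 1138.1, with a log2 difference of -0.04 and a narrow interval of -0.22 to 0.15.

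Other genes known as NRF2 targets differed by small amounts. Nqo1, a quinone reductase often used as a readout of NRF2, ran from 424.1 to 680.9 on the standard diet and from 446.5 to 767.3 on the cafeteria diet, with a log2 difference of 0.03 (95% interval -0.33 to 0.39). Counting Nqo1 with Gclc, Gclm, Gsr, Txnrd1, Srxn1, Gstp1 and Gstm1, 7 of 8 tested targets were higher and 1 was lower, and none reached an unadjusted p under 0.05. Txnrd1 and Srxn1 had a Pearson r of 0.52 across the 10 arrays (permutation p = 0.125, adjusted p = 0.311) and a Spearman rho of 0.52 (permutation p = 0.133, adjusted p = 0.433). Without the 2 arrays farthest from the median of Txnrd1, r was 0.23. Txnrd1 and Nqo1 had an r of -0.15 (permutation p = 0.666, adjusted p = 0.666) and a rho of -0.27 (permutation p = 0.447, adjusted p = 0.626).

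Hmox1, the inducible heme oxygenase and an NRF2 target that macrophages also express strongly, was below the filter. It read 82.5, 72.1, 80.2, 61.8 and 81.3 on the standard arrays and 64.9, 69.2, 161.8, 76.7 and 103.9 on the cafeteria arrays, so that cafeteria array 3 alone was well above the rest. That array also had the highest myeloid marker index, 8.99 as a mean log2 value, against 7.90 to 8.79 on the standard arrays and 7.89 to 8.30 on the other cafeteria arrays. This index covered 10 of 13 listed markers, among them Cd68, Csf1r and C1qa, and the other 3 (Cd163, Itgam and Marco) were not among the tested genes. Across the 10 arrays Hmox1 and the index had a Pearson r of 0.67 (permutation p = 0.0209, Benjamini-Hochberg adjusted p = 0.147 over 7 relations) and a Spearman rho of 0.64 (permutation p = 0.0537, adjusted p = 0.376). Without cafeteria arrays 3 and 5, the 2 farthest from the median of Hmox1, r was 0.53. With the mean of each diet taken out, r over all 10 arrays was 0.84, given as a description without a test. In a bulk sample, more cells of a type and more RNA per cell cannot be told apart, and the part of myeloid cells in the Hmox1 signal was not tested.

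The antioxidant response element is the sequence to which NRF2 binds with small MAF proteins. Its core, TGACNNNGC, was searched on both strands from 250 bases before to 50 bases after each RefSeq start site (build GRCr8). It occurred in 11 of the 32 members with a promoter in that table (34.4%) and in 3342 of all 27457 promoters (12.2%). Of the NRF2 targets counted above, Gclm and Gstp1 held a match in this window, Nqo1, Txnrd1, Srxn1, Gclc and Gstm1 held none, and Gsr had no promoter in the table. Mt1 and Mt2A were also among the 11 members with a match, at 101 and 237 bases before the start site. The following 3 stretches were picked from these 11 members. They come from members of the ligase, transferase and heme oxygenase families whose diet differences are given above. The core is in capitals, and it reads on the opposite strand in Gclm and Hmox2. The Gclm stretch is at chr2:213031943-213031991 on the plus strand, the Gstp1 stretch at chr1:210769738-210769786 on the minus strand and the Hmox2 stretch at chr10:11337679-11337727 on the minus strand, all before the start site of the gene.
Gclm: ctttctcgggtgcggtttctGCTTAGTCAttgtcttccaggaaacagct
Gstp1: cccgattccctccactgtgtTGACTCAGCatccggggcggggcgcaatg
Hmox2: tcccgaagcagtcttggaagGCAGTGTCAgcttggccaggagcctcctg
A match describes letters only. The diet differences of these 3 genes were -0.12, 0.17 and 0.25, and none passed the test.

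Metallothioneins showed the largest and one of the smallest differences on the list. Mt2A, one of the broadly expressed zinc-induced forms, read 112.9, 31.8, 88.1, 86.4 and 149.4 on the standard arrays and 123.3, 114.6, 164.1, 152.8 and 141.6 on the cafeteria arrays. Standard array 2 was far below all others, standard arrays 1, 3 and 4 were below every cafeteria array, and standard array 5 lay among the cafeteria values. The means were 93.7 ± 43.0 and 139.3 ± 20.4 (SD, n = 5 each), with a log2 difference of 0.61 (SE 0.277, 95% interval 0.0032 to 1.22), a 1.53-fold higher level on the log2 scale used, and an adjusted p of 0.477. Without standard array 2 the log2 difference was 0.33. The unadjusted p was no longer under 0.05 without standard array 2, 3 or 4 or cafeteria array 1, 3, 4 or 5, each left out singly, nor with a pseudocount of 1, no filter, quantile normalization or median centring. Mt2A was also among the dimmest tested genes, with a mean at the 42.8th percentile where the filter stood at the 40th.

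Mt3, a form known mainly from the brain, read 354.8, 316.8, 379.3, 280.3 and 434.4 against 380.7, 347.4, 351.7, 248.6 and 413.4. Both diets covered the same range, with array 4 of each the lowest and array 5 the highest. The means were 353.1 ± 59.0 and 348.4 ± 61.7 (SD, n = 5 each), and the log2 difference was -0.02 (SE 0.147, 95% interval -0.35 to 0.30, adjusted p = 0.966). Mt1, the other broadly expressed form, was too dim to be tested on its only probeset of 1 symbol. A further probeset, annotated to Mt1 and other symbols, was left out by the rule. On the probeset used, Mt1 read 19.1, 11.7, 60.7, 12.2 and 28.8 against 23.6, 8.0, 18.9, 8.7 and 52.8, with means of 26.5 ± 20.3 and 22.4 ± 18.3 (SD, n = 5 each). Its highest arrays, standard 3 and cafeteria 5, were not those of Mt2A, and across the 10 arrays the log2 signals of Mt1 and Mt2A had a Pearson r of 0.17 (permutation p = 0.641, adjusted p = 0.666) and a Spearman rho of 0.05 (permutation p = 0.891, adjusted p = 0.891).

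Metal response elements, to which MTF1 binds, were searched by their core, TGCACNC or TGCGCNC, on both strands. It occurred in 9 of 32 member promoters (28.1%) and in 25.0% of all promoters, so a single match is common. The 250 bases before the start site held 6 matches in Mt1, 4 in Mt2A and 3 in Mt3. These sequences are shown because Mt2A had the largest diet difference of the list while Mt3 had one near 0. All are on the minus strand of chromosome 19 in RefSeq GRCr8, at chr19:10832976-10833225 for Mt1, chr19:10838709-10838958 for Mt2A and chr19:10856081-10856330 for Mt3, each ending at the base before the start site, with the cores of both strands in capitals.
Mt1: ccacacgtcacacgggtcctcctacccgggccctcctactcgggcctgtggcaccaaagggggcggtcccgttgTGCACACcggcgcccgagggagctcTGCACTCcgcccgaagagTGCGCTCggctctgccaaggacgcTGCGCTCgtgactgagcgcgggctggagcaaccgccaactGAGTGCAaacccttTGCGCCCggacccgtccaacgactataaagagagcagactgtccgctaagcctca
Mt2A: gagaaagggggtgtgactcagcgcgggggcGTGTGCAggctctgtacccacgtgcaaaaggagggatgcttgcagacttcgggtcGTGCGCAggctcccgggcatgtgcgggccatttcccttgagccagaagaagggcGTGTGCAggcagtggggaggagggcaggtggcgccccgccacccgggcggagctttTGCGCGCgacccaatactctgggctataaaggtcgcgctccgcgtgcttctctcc
Mt3: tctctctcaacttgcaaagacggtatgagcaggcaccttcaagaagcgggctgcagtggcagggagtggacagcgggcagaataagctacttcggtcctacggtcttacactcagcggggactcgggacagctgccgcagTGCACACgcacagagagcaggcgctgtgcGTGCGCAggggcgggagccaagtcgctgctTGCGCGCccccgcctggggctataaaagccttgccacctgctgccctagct
Capitals mark metal response cores only, and the antioxidant response cores of Mt1 and Mt2A are in lower case. The letters say nothing about binding in these islets.

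**Figure D2:**
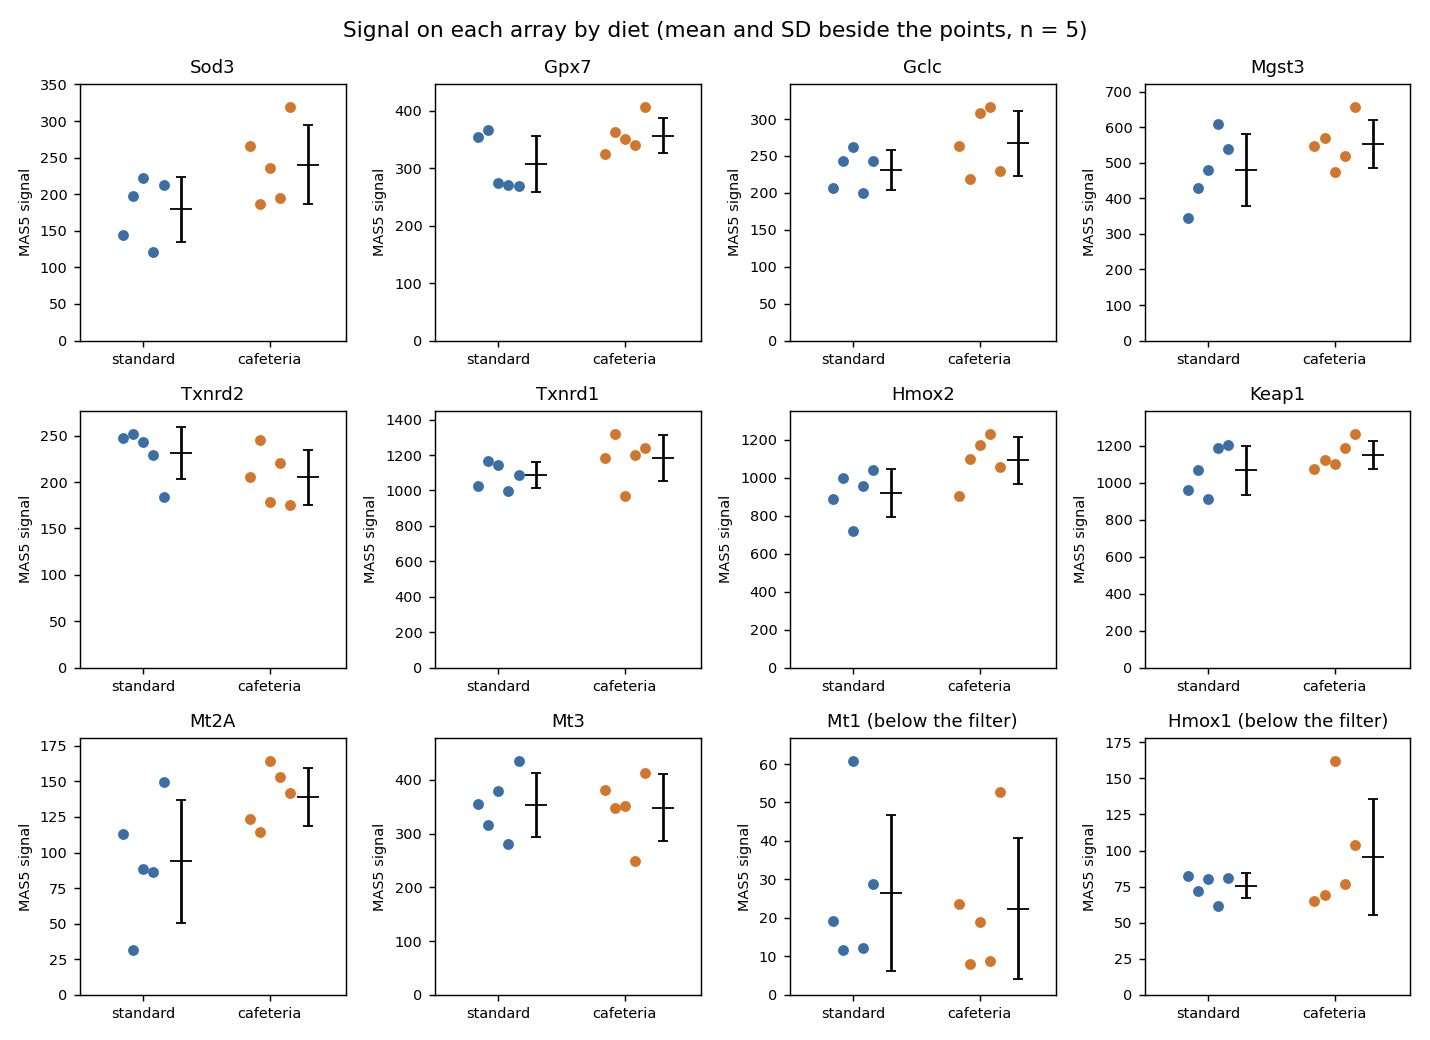
Signal (linear MAS5 intensity, vertical axes from 0) of 12 members on each array, standard diet in blue and cafeteria diet in orange, arrays 1 to 5 from left to right, with the mean and SD (n = 5) beside the points. The diets overlap in every panel, and Mt2A (31.8 to 149.4 against 114.6 to 164.1) has its lowest point on standard array 2.

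Cafeteria array 5 was the highest of the 10 arrays for 16 of the 33 members, against 19.6% of all tested genes. They were 10 of the 13 genes of superoxide and peroxide removal (Sod1, Sod2, Sod3, Gpx1, Gpx4, Gpx7, Prdx2, Prdx3, Prdx4 and Prdx5) and Txn1, Glrx, Gss, Mgst3, Srxn1 and Keap1. The same array was the lowest for 3 members, Prdx6, Gstm1 and Txnrd2, against 17.8% of all tested genes. Without it, 23 of 33 members were higher and their median log2 difference was 0.067, while 47.9% of all genes were higher. Leaving out standard array 4 gave 23 of 33 as well. The beta cell marker index of cafeteria array 5, 14.30, was the highest of all arrays (13.85 to 14.03 on the standard arrays), as was its endothelial index. The GAPDH ratio of cafeteria array 5, 1.11, was above the 0.96 to 1.01 of the other cafeteria arrays. The part of these measures in the members' values was not tested.

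**Figure D3:**
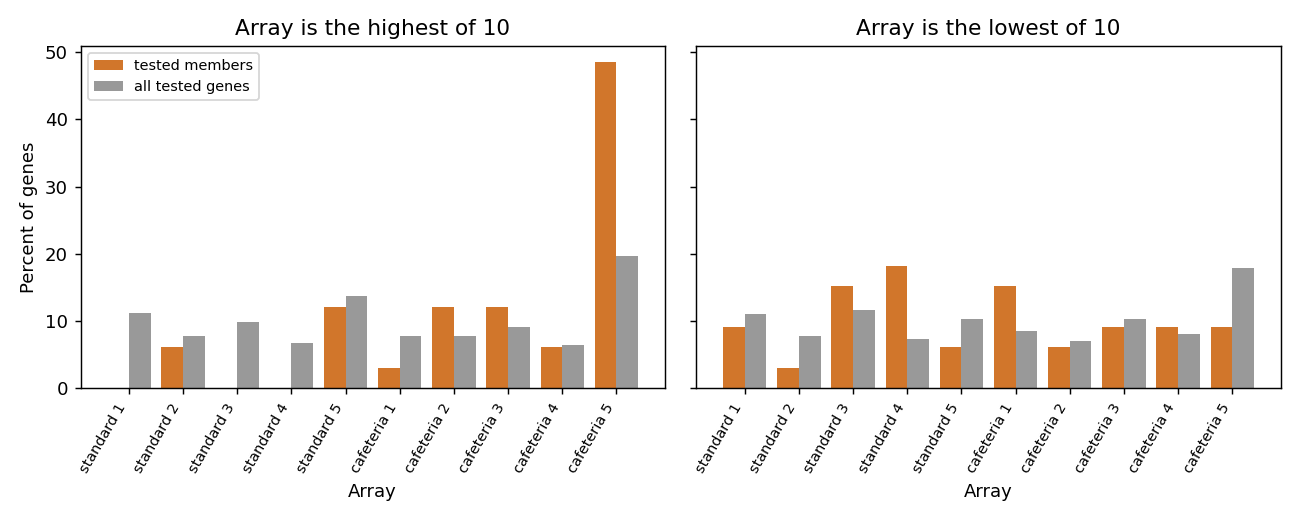
Percent of the 33 tested members (orange) and of all 10300 tested genes (grey) for which each array is the highest (left panel) or the lowest (right panel) of the 10 arrays. Cafeteria array 5 is the highest for 16 members and the lowest for 3.

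The members also differed in how well replicates agreed. The median residual SD was 0.202 on the log2 scale over the members and 0.172 over all tested genes. It was above the 90th percentile of tested genes for 5 members (Gsr, Gpx2, Gpx3, Mt2A and Gstm1) and below the 20th for 5 (Prdx2, Prdx3, Gpx4, Nfe2l2 and Txn1). Of the latter, all had signals near or above 1000 on every array.

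**Figure D4:**
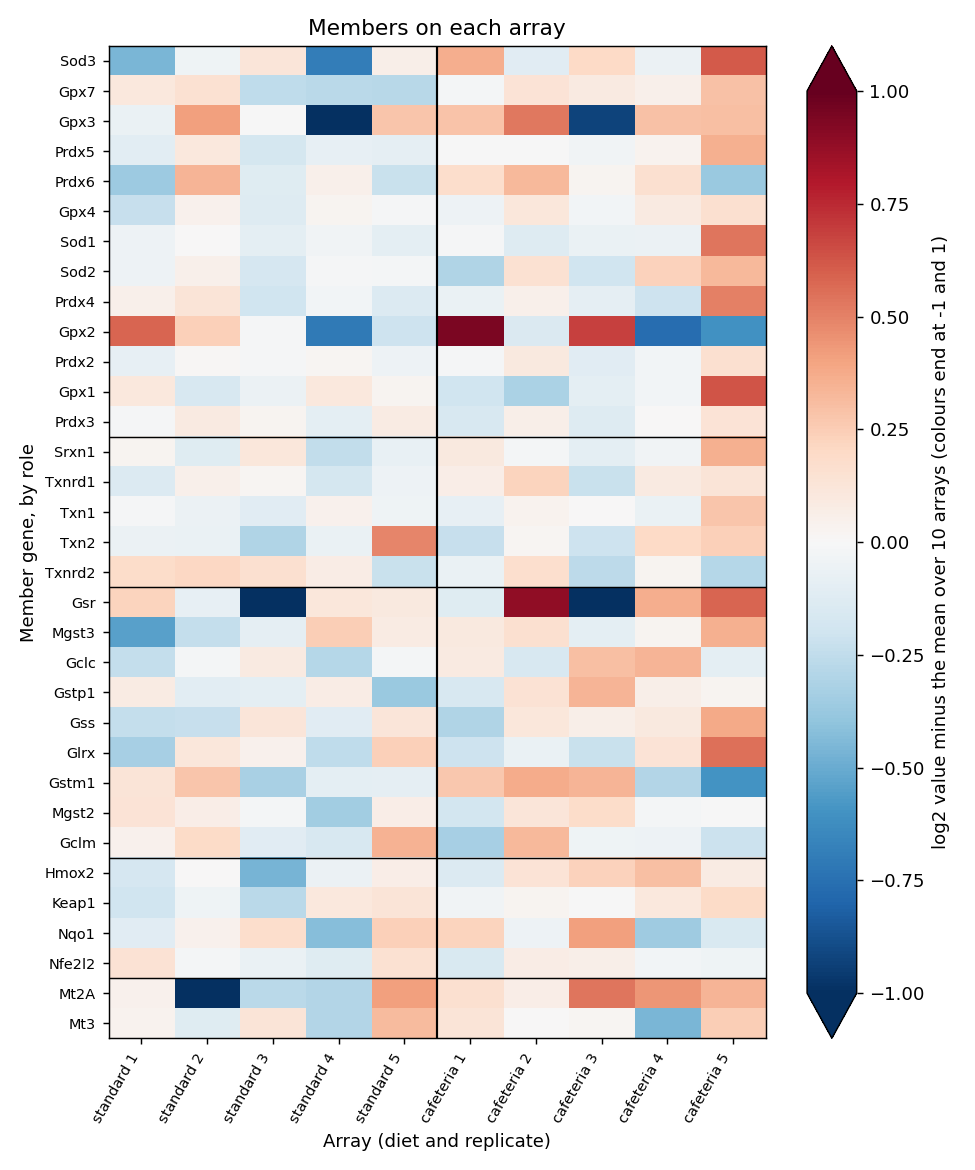
Log2 value of each tested member on each array minus its mean over the 10 arrays (colour, ends at -1 and 1), with members in rows by role and arrays in columns, standard diet left of the line. Cafeteria array 5 is red for most genes of peroxide removal, and Gsr, Gpx2 and Gpx3 carry strong colours in both diets, whereas the strongest colour of Mt2A is on standard array 2.

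Over the other genes of these pathways, the list held 84 genes, of which 73 were tested. They were evenly divided, with 37 higher, 36 lower and a median log2 difference of 0.0011. At an unadjusted p under 0.05 there were 4 higher and 5 lower genes of the 73, where 5.02% and 5.26% of all tested genes were called. Aldh2, a mitochondrial aldehyde dehydrogenase, went from 291.6 ± 21.8 to 225.7 ± 22.3 (SD, n = 5 each) without overlap, a log2 difference of -0.35 (SE 0.088, adjusted p = 0.398). Glrx3, a glutaredoxin with a role in iron handling, differed by -0.25 (adjusted p = 0.412) and Gstk1, a further glutathione transferase, by -0.32 (adjusted p = 0.422). The 3 highest by unadjusted p were Ephx1, an epoxide hydrolase and NRF2 target, at 0.31, Sqstm1, the autophagy adaptor that binds KEAP1, at 0.24, and Ccs at 0.27, with adjusted p of 0.422, 0.422 and 0.440. In Ephx1 and Sqstm1 the diets did not overlap, which makes 2 higher and, with Aldh2, 1 lower gene of the 73, where the shares over all tested genes were 1.06% and 1.72%. None of the 73 passed the adjusted threshold.

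On the arrays as a whole, the trimmed mean signal was 500.1 to 500.2 on every array and the median 150.8 to 173.2. The islet label went with a beta cell index of 13.85 to 14.30, as a mean log2 value, over the 10 arrays. This index covered 6 of 7 listed markers (Ins1, Ins2, Iapp, Mafa, Slc2a2 and Nkx6-1), and Ucn3 was not tested. It does not show the level of each marker. The log2 GAPDH ratio was lower in the cafeteria group (difference -0.205, standard 0.00 to 0.34, cafeteria -0.05 to 0.16; exact two-sided permutation p = 0.0238, adjusted p = 0.310 over 13 measures of cell types and RNA quality). With this ratio as a covariate, 24 of 33 members were higher, the Mt2A difference was 1.14 and that of Prdx6 turned to -0.29. Exocrine acinar markers (9 of 10 tested) differed by -0.34 (exact permutation p = 0.444), myeloid markers by -0.20 (exact permutation p = 0.429) and duct markers (5 of 9 tested) by 0.19 (exact permutation p = 0.143). Lymphoid markers, of which 3 of 9 were tested, differed by -1.10 (exact permutation p = 0.0794, adjusted p = 0.516).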

How the data were processed

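Total islet RNA was measured on 10 Affymetrix rat arrays, 5 for each diet. The deposited values are linear intensity values made with MAS5, per the submitters' processing notes, with no version and no detection calls used here, and their 2% trimmed mean is the same on all arrays. From these, log2(signal + 14.15) was computed, the pseudocount being the 10th percentile of all values. Non-control probesets (31042) with a mean above the 40th percentile were kept (18625), and the diets were compared with lmFit and eBayes of limma 3.58.1 in R 4.3.3, adjusted over all of them by the Benjamini-Hochberg method. Fold changes on this scale understate those of dim genes. The number of arrays limits the precision. Depth has no meaning for arrays.

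The 38 members, their 5 roles and the lists were chosen with earlier results of these data known. Values on every array are given for the 2 tested members of lowest unadjusted p in each role and for all metallothioneins. They are also given for any member at an unadjusted p under 0.05. Some members were added after their values were seen (the other Gpx genes, Gsr, Hmox1, and Sod1 on the cafeteria arrays only). Of 84 other pathway genes, the 3 of lowest p in each direction are named. Groups follow the titles, against the diet field. Correlations have 100000 permutations. Promoters are from RefSeq (GRCr8). The fit was tested on simulated data. Alternatives were pseudocount, filter, scaling, choice of probeset, eBayes options, array weights, covariates, a replicate block and each array left out. Correlations of the 2 arrays with the same replicate number ran from -0.0017 to 0.30, 3 of 5 over 0.1. Those of arrays with other numbers ran from -0.31 to 0.30. For 2 of the 5 numbers, the arrays correlated best with each other. Whether the numbers mark pairs cannot be told from these values, and the main fit did not pair them.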

Additional observations from a re-analysis of the deposited data

Results flagged for a closer look

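In 4 of 72 sets of 5 arrays, a member had 1 array far from the other 4 of its diet by Dixon's criterion, which chance alone meets in about 1 set in 20. The log2 value of Sod1 was 14.13 on cafeteria array 5, against 13.46 to 13.58 on the other cafeteria arrays. Prdx5 was also highest on cafeteria array 5, at 11.46 against 11.08 to 11.15. The log2 value of Gpx3 was 12.65 on cafeteria array 3, against 13.86 to 14.10 on the other cafeteria arrays. Gsr was lowest on standard array 3, at 7.06 against 8.01 to 8.31 on the other standard arrays.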

How the results depend on the processing

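No member passed the adjusted threshold under any of 24 other settings, and of 780 single-member values 732 kept their direction and 48 turned in sign without a call. The number of members at an unadjusted p under 0.05 was 1 as reported (Mt2A). It was 1 with quantile normalization or the filter at the 70th percentile (Hmox2 in place of Mt2A, which that filter leaves out). With a pseudocount of 1, without a filter and with median centring it was 0. It was 2 with the GAPDH ratio, the acinar index or the myeloid index as a covariate, with the mean of probesets and with array weights. A trended and robust eBayes also gave 2 (Hmox2 and Mt2A), as did the replicate number as a block (Mt2A and Sod3). With 1 array left out it was 0 to 4. The replicate block changed no other call. The number of probesets past the adjusted threshold was 0, and 0 to 1 with 1 array left out (1 without standard array 2). Of the members that turned, Gpx1 was 0.0013 with quantile normalization, and Txn2 was -0.031, Mgst2 -0.00060 and Nqo1 -0.0059 with median centring. With the GAPDH covariate Gpx1 was 0.31, Gpx2 -0.053, Prdx6 -0.29, Gstm1 -0.32, Mgst2 -0.0047, Nqo1 -0.039 and Mt3 0.18. With the acinar covariate Gpx1 was 0.049, Gpx2 -0.11, Gstm1 -0.054 and Nqo1 -0.028, and with the myeloid covariate Gpx1 was 0.026 and Mt3 0.031. With 1 array left out, ranges that crossed 0 were -0.053 to 0.15 for Glrx, -0.17 to 0.071 for Gpx1, -0.18 to 0.24 for Gpx2, -0.057 to 0.45 for Gpx3, -0.050 to 0.19 for Gstm1, -0.046 to 0.088 for Mgst2, -0.099 to 0.089 for Mt3, -0.071 to 0.12 for Nqo1, -0.041 to 0.14 for Prdx4, -0.013 to 0.15 for Sod1 and -0.069 to 0.13 for Txn2. The cause was not tested. Low signal limits Mt1, Hmox1 and Gstm2, which were not tested, and Mt2A.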
